A study of Taeniopygia guttata with 23 samples.

Results

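The regions described here carried H3K4me3 and H3K27me3 together and no RNA polymerase II (Pol II) in the auditory forebrain of young male zebra finches (Taeniopygia guttata). They were found among 14349 regions that held an H3K4me3 island in all 4 libraries of day 67, an island being a stretch of enriched windows called in 1 library. A region was kept when an H3K27me3 island overlapped it in all 4 day 67 libraries, a Pol II island in none of the 4, and an H3K9me3 island in fewer than 4. This left 772 regions, 5.38% of the 14349, which are called bivalent regions below. Among the 2233 regions with H3K27me3 in all 4 libraries they made up 34.6%. They were thus chosen by the presence or absence of islands of the 4 marks at day 67, so their day 67 values are given as a description, and the library taken on day 32 is the measurement that had no part in the choice.

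H3K4me3 is written at promoters by the COMPASS and MLL family of methyltransferases and is a mark of active or poised start sites. H3K27me3 is written by EZH2 within Polycomb repressive complex 2 and marks genes held silent. Promoters with both marks, first described in embryonic stem cells of mammals, often belong to developmental regulators that are silent or weakly transcribed, and in brain they include genes of other cell lineages. A tissue such as the auditory forebrain, in which songbirds process heard song, mixes neurons and glia, so both marks at 1 place can come from the same chromosomes or from different cells. In these bulk samples a lower value from fewer cells of a type and a lower value per cell cannot be told apart.

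The study concerned song learning, which juvenile males of this species do by copying an adult male. Tutored males were housed from day 21 after hatching with 1 adult of each sex, Isolate males from the same day with 2 adult females, and both were taken on day 67 (together P67). P32 males had stayed in the flight aviary of their hatching and were taken on day 32, so age and housing cannot be told apart in that comparison. No genotype or strain is named. The 20 libraries were 5 for each mark, from 2 Tutored, 2 Isolate and 1 P32 sample. Nothing in the labels says whether the replicates came from different birds or how many birds a library pooled. The p-values therefore reflect the scatter of these libraries alone, which can be technical.

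The libraries held 8589 to 31185 islands with 1551076 to 11303863 reads inside them. Some labels conflicted. The deposited names of the H3K4me3 replicate 1 lists carry the letter of the other day 67 group, the names of the Pol II replicate 1 lists carry the number 2, and the series text gives day 65 in place of day 67. The sample labels were followed, and the 2 H3K4me3 lists were also exchanged as a check. The islands carry coordinates on a build for which the labels give no name, and no gene names, so the regions are named by position, no gene or sequence is assigned to them, and the tissue label could not be checked against marker genes.

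Bivalent regions were shorter than regions with Pol II and held little H3K4me3 for their length. Their median length was 2200 bp, from 600 to 10000 bp, and from 1200 bp at the 10th to 4000 bp at the 90th percentile. Regions with Pol II and H3K27me3 in all 4 libraries (302) had a median of 5600 bp, and regions with Pol II in all 4 but H3K27me3 nowhere (2524) had 4600 bp. Regions with neither of these nor H3K9me3 (2688) were shorter still, at 1600 bp. A region was dropped for 1 bp under a Pol II island, which a longer region has more room to meet. The rule itself thus bears on these lengths, and its part was not tested. With H3K27me3 in all 4 and H3K9me3 in fewer than 4, regions with Pol II in 1 library had a median of 2800 bp. Those with Pol II in 2 had 3800 bp.

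Read density was expressed as CPM per kb, the reads of a region scaled to the reads in all islands of its library and to its length. The median bivalent region had 7.72 CPM per kb of H3K4me3 in Tutored 1, 8.00 in Tutored 2, 7.40 in Isolate 1 and 8.02 in Isolate 2, which is 7.78 ± 0.29 (SD, n = 4 libraries). The P32 library, which the choice did not use, gave 8.79 over the 711 regions with a P32 island. Regions left out of it were less dense at day 67. Their median was 5.37 where P32 had H3K27me3 alone (56), against 8.27 where it had both marks (696). Reads of P32 islands that reached past a region were counted too, over its day 67 length. The P32 value is thus not directly comparable with those of day 67. These medians rest on 71, 182, 67 and 187 reads in the day 67 libraries and 98 in P32, so the replicate 2 libraries counted more reads per region. In every library the bivalent median was the lowest of the 4 kinds of region. Regions with Pol II and no H3K27me3 were 2.43 to 2.90 times as dense, regions with Pol II and H3K27me3 1.52 to 1.99 times, and regions with no other mark 1.22 to 1.53 times.

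**Figure D1:**
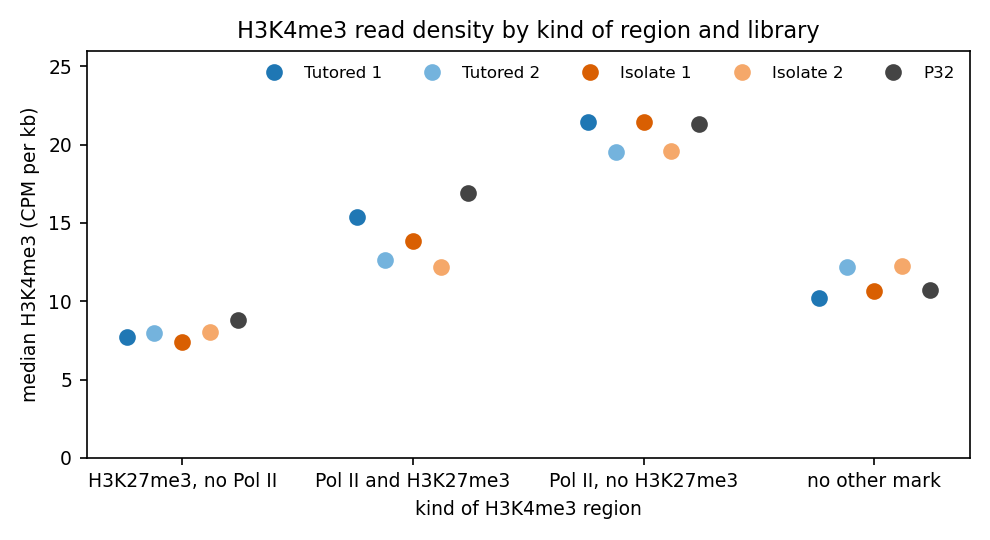
Median H3K4me3 read density (CPM per kb, vertical axis) of 4 kinds of H3K4me3 region (horizontal axis), with 1 point per library and no error bar. Bivalent regions (H3K27me3, no Pol II) lie between 7.40 and 8.79 in all 5 libraries, below every other kind. P32 points are medians over the regions with a P32 island only.

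The gap to regions with Pol II alone and to regions with no other mark was also present between regions of like length. Among regions of up to 1600 bp the median over the 4 day 67 libraries was 7.69 CPM per kb for bivalent regions (238), 18.6 for regions with Pol II alone (175) and 12.1 for regions with no other mark (1350). Among regions over 3200 bp it was 9.09 for bivalent regions (163) and 21.02 for regions with Pol II alone (1799). Regions with Pol II and H3K27me3 lay close to bivalent ones between 1600 and 2400 bp, at 7.30 (28 regions) against 7.06 (210 regions). They were also close between 2400 and 3200 bp, at 7.93 (27 regions) against 7.57 (161 regions). Over 3200 bp they lay above them, at 15.7, but that band has no upper limit of length. Up to 1600 bp they had 10.5, from only 10 regions.

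The longest bivalent regions differed in how the marks were laid out. The longest, chr4:24115601-24125600, had 352, 1409, 267 and 1692 H3K4me3 reads in Tutored 1, Tutored 2, Isolate 1 and Isolate 2, and 70 in P32. Its H3K27me3 covered 38.0% of it in both replicate 1 libraries, 4.00% in Tutored 2, 6.00% in Isolate 2, and none in P32. This region therefore met the rule through H3K27me3 at 1 end. The longest that lay whole inside H3K27me3 in every library, chr3:70640001-70647800 (7.8 kb), sat within a stretch of 45.6 kb. Its H3K4me3 reads were 348, 570, 239 and 664 at day 67 and 416 in P32.

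The densest bivalent region, chr1A:6547401-6548200 (0.8 kb), had 99, 418, 93 and 426 H3K4me3 reads in Tutored 1, Tutored 2, Isolate 1 and Isolate 2, a mean of 37.8 ± 11.4 CPM per kb (SD, n = 4 libraries). In P32 it had 320 reads, 77.2 CPM per kb. Its H3K27me3 islands held only 41 to 87 reads per library. The second densest, chr19:4193201-4194800, had 249, 547, 226 and 529 H3K4me3 reads, 32.5 ± 2.94 CPM per kb, and 382 reads in P32. The 5 densest regions were all between 0.8 and 1.6 kb long, and their H3K27me3 stretches ran from 0.8 to 3.6 kb, against a median of 9.0 kb.

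In reads per kb, H3K27me3 at bivalent regions was denser than in stretches with no H3K4me3 and less dense than where Pol II was also present. The islands over bivalent regions held a median of 44.1 reads per kb in Tutored 1, 72.2 in Tutored 2, 41.4 in Isolate 1, 71.4 in Isolate 2 and 55.7 in P32. The rule asked for H3K27me3 in all 4 day 67 libraries, so the comparison was limited to stretches called in all 4, a set chosen after the values were seen. There, islands with no H3K4me3 held 35.8, 56.7, 33.8, 54.1 and 40 reads per kb, below bivalent regions in all 5 libraries. Islands over regions with Pol II and H3K27me3 held 48.7, 85.9, 44.5, 90.9 and 69.1, above them in all 5. Among islands of 4 to 8 kb the order was the same, for example 33.2, 39.9 and 45.6 in Tutored 1 and 37.0, 49.8 and 66.4 in P32.

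The authors' deposited table for Tutored 2 gives a median fold over input of 2.90 for islands with a bivalent region and 2.34 for those with no H3K4me3 in stretches called in all 4. The authors' deposited table for Isolate 2 gives 2.94 and 2.28. These folds are the authors' own values. Input reads in the same islands were 14.8 against 14 per kb in Tutored 2 and 14.5 against 13.8 in Isolate 2. Islands over regions with Pol II and H3K27me3 had a median fold of 2.71 in Tutored 2 and 2.932 in Isolate 2, beside 2.904 and 2.937 for bivalent ones. Input reads there were 17.7 and 17.6 per kb. Their higher reads per kb thus did not come with a higher median fold over input. The islands with a bivalent region numbered 747 to 790 per library, which is 2.53% to 3.46% of H3K27me3 islands and 5.07% to 6.34% of the reads in them.

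H3K27me3 mostly reached past the H3K4me3. A single H3K27me3 island held the whole bivalent region in 54.3%, 48.2%, 56.7% and 53.5% of cases in Tutored 1, Tutored 2, Isolate 1 and Isolate 2, and in 61.8% in P32. In another 36.9% to 40.5% at day 67 the island covered 1 edge of the region. The longer flank of H3K27me3 had a median of 2.4 to 3.8 kb over the 5 libraries, and the shorter flank a median of 0 kb. A flank was missing on 1 side or both at 56.4% to 63.9% of the regions with H3K27me3. The density of H3K4me3 showed little relation to that of H3K27me3 across the 772 regions, which share library and depth. Spearman's rho was -0.00, -0.11, 0.04 and -0.09 in the 4 day 67 libraries, and 0.21 over 696 regions in P32.

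Nearly every Polycomb stretch with a bivalent region held only 1 of them, though some also held other H3K4me3 regions. H3K27me3 islands of the 4 day 67 libraries, merged where they overlapped or touched, gave 30711 domains, and 756 of these held a bivalent region. Of the 756, 741 held 1, 14 held 2 and 1 held 3. The 12 bivalent regions that overlapped more than 1 domain were counted with the first. The domains had a median length of 9.0 kb, and 143 were at least 20 kb long.

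The domain with 3, chr11:6341201-6384400 (43.2 kb), contained no other H3K4me3 region. H3K27me3 covered 38.2, 36.6, 40.4 and 39.8 kb of it at day 67 and 37.2 kb in P32. Its first bivalent region, chr11:6345201-6347800, had 91, 170, 95 and 165 H3K4me3 reads at day 67 and 123 in P32. The second, chr11:6355401-6357400, had 69, 143, 88 and 162, and 97 in P32. The third, chr11:6373801-6376200, had 43, 81, 83 and 87, and 88 in P32. All 3 kept both marks in P32 and carried an H3K9me3 island there.

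**Figure D2:**
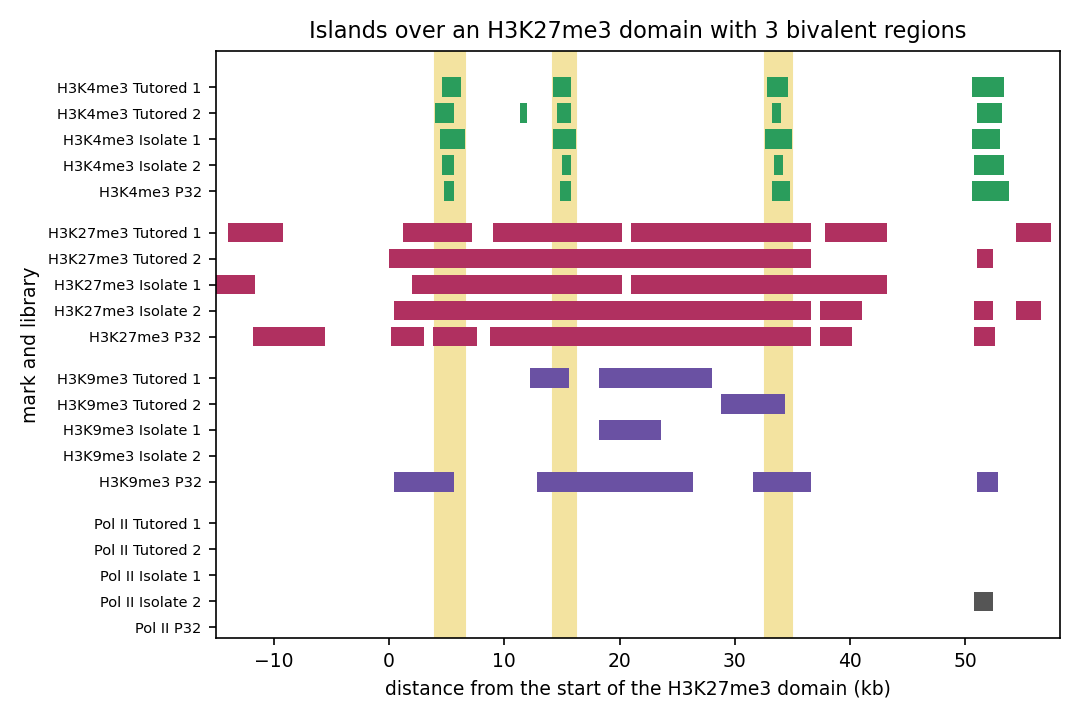
Islands of the 4 marks in each library (rows) over the chromosome 11 domain, by distance from its start in kb, with the 3 bivalent regions shaded. H3K27me3 bars run across the shaded parts in all 5 libraries, no Pol II bar meets them, and H3K9me3 meets all 3 in P32.

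The 4 longest of the domains with 2 bivalent regions were also looked at. In the longest, chr14:8526201-8712400 (186.2 kb), 2 of the 4 H3K4me3 regions had a Pol II island in at least 1 day 67 library and the other 2 were bivalent. In chr3:56584801-56754200 (169.4 kb) 1 of 3 had Pol II, and in chr27:2370801-2412400 (41.6 kb) 2 of 4. In chr21:5235001-5283000 (48.0 kb) both H3K4me3 regions were bivalent. Single H3K27me3 domains thus held H3K4me3 regions with and without Pol II.

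Around the domains, bivalent regions lay apart from other H3K4me3. The nearest other H3K4me3 region was a median of 22.8 kb away, against 11.2 kb for both kinds with Pol II and 5.4 kb for regions with no other mark. The nearest Pol II island of day 67 was 19.1 kb away, against 6.2 kb for regions with no other mark. Of 1542 neighbouring H3K4me3 regions 14.9% were bivalent themselves, while bivalent regions were 5.38% of all regions. Regions with Pol II and no H3K27me3 made up 8.76% of the neighbours and 17.6% of all regions.

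How sharply the rule cut was visible from the regions next to it. Among regions with H3K27me3 in all 4 libraries, 846 had Pol II in none, 420 in 1, 344 in 2, 302 in 4 and the rest in 3. Of the 846, 74 were left out for H3K9me3 in all 4. With the same limit on H3K9me3, 361 regions lay just outside the rule by 1 Pol II call, which was in Isolate 2 at 200 regions, in Isolate 1 at 133, in Tutored 1 at 25 and in Tutored 2 at 3. Tutored 2 had the shortest Pol II list, with 8589 islands against 15198 in Isolate 2, 18311 in Tutored 1 and 19656 in Isolate 1, and its part in these numbers was not tested. At regions with Pol II in 1 library only, the Pol II islands of Isolate 2 held a median of 76.5 reads, and the smallest Pol II island anywhere in that library held 22. Where instead H3K27me3 was missing in 1 library, that was Tutored 1 at 52 regions, Isolate 1 at 40, Isolate 2 at 21 and Tutored 2 at 18. The lowest H3K27me3 count at a bivalent region was 37 reads in Tutored 1, 32 in Tutored 2, 37 in Isolate 1 and 33 in Isolate 2.

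At P32 most bivalent regions already carried both marks, nearly none carried Pol II, and most carried H3K9me3. An H3K4me3 island was present in P32 at 711 of the 772 (92.1%, exact 95% binomial interval 89.97% to 93.9%), beside 94.7% of all 14349 regions. H3K27me3 was present at 752 (97.4%, 96.0% to 98.4%), beside 27.2% of all regions. The rule asked for H3K27me3 at day 67, which most of all regions did not have in all 4 libraries. Regions with Pol II and H3K27me3 at day 67 had H3K4me3 in P32 at 99.3% and H3K27me3 at 99.7%. At bivalent regions both were present at 696 (90.2%), H3K4me3 alone at 15, H3K27me3 alone at 56 and neither at 5. These intervals treat the regions as independent draws, though some share a domain and all come from 1 P32 library per mark. They thus do not measure the spread between samples.

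Pol II was present in P32 at 5 bivalent regions (0.648%, 0.211% to 1.505%), beside 25.9% of all regions. Regions with Pol II and H3K27me3 at day 67 had it at P32 in 52.3% of cases, and regions with no other mark at day 67 in 3.94%. Regions with Pol II and no H3K27me3 at day 67 had it in 71.0%. The P32 Pol II list held 10996 islands with 1579718 reads, the fewest reads of any Pol II library. Its part in these shares was not tested. The other 767 bivalent regions had no Pol II island in any of the 5 libraries. The 5 exceptions were chr2:3052401-3056200, chr4:42801801-42808200, chr15:11932601-11936800, chr17:6659601-6663000 and chr28:1928001-1932200, all of which kept both histone marks at P32.

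H3K9me3, the mark of constitutive heterochromatin that HP1 proteins bind, was present in P32 at 484 bivalent regions (62.7%, 59.2% to 66.1%), beside 29.6% of all regions. The day 67 libraries had it at 96 regions in Tutored 1, 145 in Tutored 2, 80 in Isolate 1 and 81 in Isolate 2, or 10.4% to 18.8%, and the rule itself capped that number. Over all 14349 regions the 4 day 67 libraries had it at 3.97% to 5.69%. At bivalent regions P32 was far above all 4 day 67 libraries. The P32 share was higher still at regions with Pol II and H3K27me3 (90.7%), and lower at regions with Pol II alone (34.6%) and with no other mark (2.23%).

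**Figure D3:**
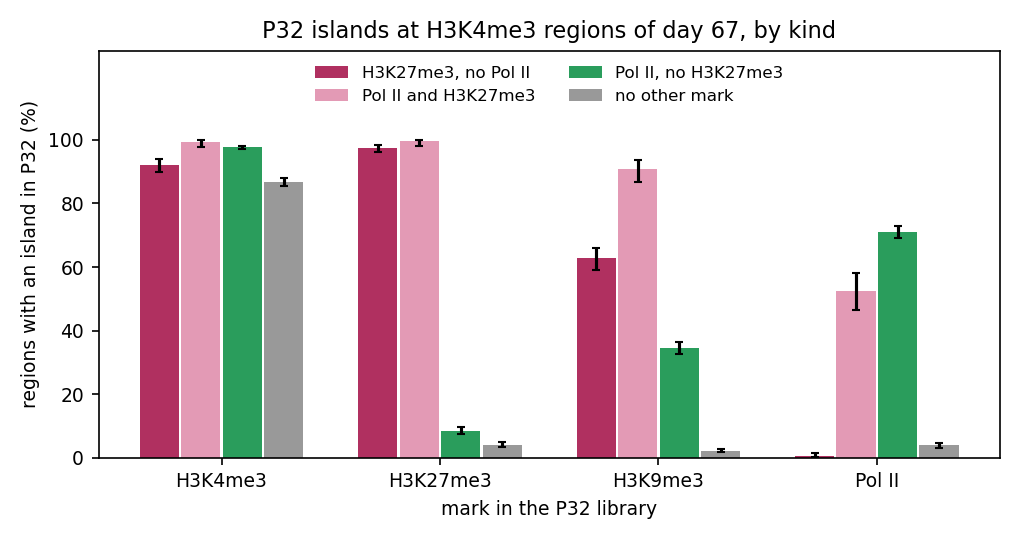
Share of regions with an island in the P32 library (percent, vertical axis) for each mark, by kind of H3K4me3 region at day 67. Bars are exact 95% binomial intervals over regions of 1 library and do not measure the spread between samples. At bivalent regions H3K4me3 stands at 92.1%, H3K27me3 at 97.4%, H3K9me3 at 62.7% and Pol II at 0.648%.

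The high P32 share was also present at the 522 bivalent regions with no H3K9me3 in any day 67 library. Of these, 274 (52.5%) had an H3K9me3 island in P32, beside 24.4% of the 13226 regions of every kind with none at day 67. The share was 78.7% of 141 regions with H3K9me3 in 1 day 67 library, 86.4% of 66 with it in 2 and 97.7% of 43 with it in 3. It was also tied to the other marks at P32, being 67.2% where both H3K4me3 and H3K27me3 were present and 26.8% where H3K27me3 alone was.

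Within the H3K27me3 stretches, P32 had H3K9me3 more often where H3K4me3 was than elsewhere. Of the 200 bp windows under H3K27me3 inside bivalent regions, H3K9me3 covered 9.13% in Tutored 1, 12.4% in Tutored 2, 8.18% in Isolate 1 and 7.07% in Isolate 2, and 54.0% in P32. Windows under H3K27me3 within 5 kb of a bivalent region, outside every H3K4me3 island, had 16.3%, 11.8%, 15.4% and 11.1% at day 67 and 29.2% in P32. Windows under H3K27me3 anywhere outside H3K4me3 had 27.3% to 31.4% at day 67 and 34.0% in P32. In P32 the share inside bivalent regions was thus above that of both other places. At day 67 it was below that of H3K27me3 away from H3K4me3 in all 4 libraries, which the limit of the rule on H3K9me3 in part fixes, and Tutored 2 had more inside than within 5 kb. Windows of regions with Pol II and H3K27me3, which had no such limit, had 22.8% to 28.6% at day 67 and 82.2% in P32. Windows of bivalent regions outside H3K27me3 had 0 to 0.720% at day 67 and 6.78% in P32. In regions with Pol II and no H3K27me3 at day 67, windows had 0.194% to 0.362% at day 67 and 17.6% in P32. The higher share in P32 was thus not limited to bivalent regions or to regions with H3K27me3 at day 67.

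**Figure D4:**
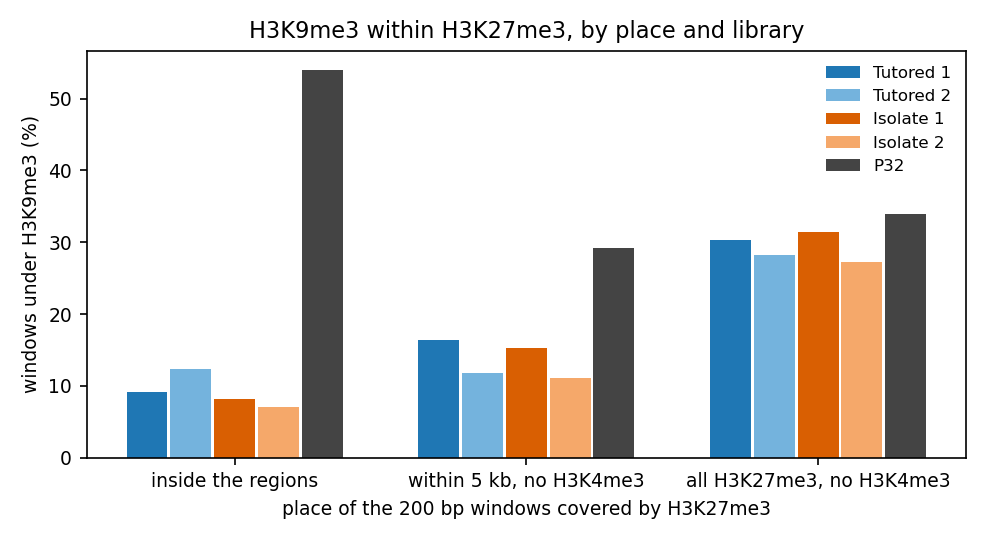
Percent of the 200 bp windows under H3K27me3 that also lay under H3K9me3 (vertical axis), by place of the window and library. Inside bivalent regions P32 stands at 54.0% and the 4 day 67 libraries at 7.07% to 12.4%, while away from H3K4me3 all 5 libraries lie between 27.3% and 34.0%.

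The P32 library had 20287 H3K9me3 islands in all, within the 19002 to 24470 of the day 67 libraries, and they covered 73.9 Mb against 60.5 to 82.8 Mb. The islands at bivalent regions in P32 had the median length of all its H3K9me3 islands (2.6 kb) and 25 reads per kb against 23.2. With a single P32 library of each mark, age, housing and that library cannot be told apart here.

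Isolate against Tutored addressed whether rearing without a tutor moved the marks at bivalent regions. No bivalent region passed an adjusted p of 0.05 for H3K4me3 reads by edgeR's quasi-likelihood test with Benjamini-Hochberg adjustment over 14349 regions, of which 0% passed. By unadjusted p under 0.05, 2 of the 772 did, or 0.259%, beside 0.0627% of all regions (9), and DESeq2 called none at an adjusted p and 3 at an unadjusted p (0.389%, beside 0.237% of all). The median log2 difference of Isolate from Tutored was -0.04 at bivalent regions and -0.00 over all. The middle 80% of bivalent regions lay between -0.39 and 0.28, and that of all regions between -0.22 and 0.2. These tests fitted the group alone and left out the replicate number. With no difference anywhere, a share of 0.05 would be expected to have p under 0.05, far above the 0.0627% found by edgeR. The edgeR test without the block was thus conservative here. Its lack of calls does not show that the groups were alike. The numbers were taken to pair the samples, so edgeR was also run with the replicate number as a block. Then 43 bivalent regions (5.57%) had an unadjusted p under 0.05, beside 3.55% of all. Of the 43, 12 were higher and 31 lower in Isolate, and 0 had an adjusted p under 0.05. The split over all regions was not taken, so this lean has no background. The block was not run with the H3K4me3 replicate 1 lists exchanged. Without the block, that exchange turned the bivalent median from -0.04 to 0.036, so the direction depends on the labels of those lists.

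The bivalent region with the smallest p among those higher in Isolate, chr5:7424401-7425800, had 17 and 47 H3K4me3 reads in Tutored 1 and 2 and 42 and 79 in Isolate 1 and 2. The counts of the groups overlapped, but scaled to library size they did not, with a mean of 4.25 ± 0.21 CPM for Tutored and of 8.61 ± 2.11 for Isolate (SD, n = 2 each). Its log2 difference was 0.99 ± 0.38 (SE) with an adjusted p of 1 by edgeR. Among those lower, chr21:3311201-3312800 had 93 and 211 reads in Tutored and 41 and 116 in Isolate, a log2 difference of -1.05 ± 0.34 and an adjusted p of 1 by edgeR. Scaled to library size, both Tutored libraries (22.4 and 19.8 CPM) were above both Isolate ones (9.83 and 10.4). Both directions turned when the H3K4me3 replicate 1 lists were exchanged, to -0.30 and 0.12, so they rest on the labels of those lists.

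For H3K27me3, 760 domains that overlapped bivalent regions were tested among the 14211 called in all 4 libraries, and 0 passed an adjusted p of 0.05 by edgeR, as 0% of all did. Unadjusted p was under 0.05 at 2 of them (0.263%), both higher in Isolate, beside 0.697% of all (99). The share over all was again far below 0.05, so this test was conservative too. DESeq2 called 3 of all domains and none of these. With the replicate block 21 (2.76%) had an unadjusted p under 0.05, beside 4.85% of all, and 0 an adjusted one. The median log2 difference was 0.02 at bivalent domains and -0.00 over all.

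The domain with the smallest p, chr3:89506201-89520800, had 140 and 145 H3K27me3 reads in Tutored and 369 and 256 in Isolate. Both Isolate libraries were above both Tutored ones, and the islands covered 5.4 and 2.4 kb in Tutored and 14.6 and 4.4 kb in Isolate. Its log2 difference was 1.26 ± 0.45 (SE), with an adjusted p of 1 by edgeR, and it was 0.63 without Isolate 1 and 1.71 without Isolate 2. The lower one with the smallest p, chr13:1572401-1575800, had 125 and 198 reads in Tutored and 65 and 111 in Isolate, a log2 difference of -0.83 ± 0.35 and an adjusted p of 1 by edgeR, and both Tutored libraries were above both Isolate ones.

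P32 against P67 addressed how the read counts of both marks differed at the younger age. The P32 library is alone, and its spread was taken to be that of the others. For H3K4me3 the islands of all 5 libraries were merged anew, which lengthened some regions. Then 711 bivalent regions called in all 5 were tested among 13513, and the other 61, which had no P32 island, were left out. None passed an adjusted p of 0.05 by edgeR's quasi-likelihood test (0% of all), and the smallest adjusted p was 0.071. Unadjusted p was under 0.05 at 165 of them (23.2%), 99 higher and 66 lower in P32, beside 23.1% of all. That balance turned when regions called in at least 2 libraries were tested, with the uncalled ones at 0 reads. All 772 bivalent regions then entered, and unadjusted p by edgeR was under 0.05 at 184, 72 higher and 112 lower in P32. Again 0 passed an adjusted p of 0.05. An uncalled region has an unknown count, so neither balance settles the direction.

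That count of 0 depended on the libraries and the tool. Without Tutored 1, 32 bivalent regions passed an adjusted p of 0.05 (4.50%, beside 6.96% of all). Without Tutored 2, 16 passed (2.25%, beside 5.16%). Without Isolate 1 it was 40 (5.63%, beside 8.73%), and without Isolate 2 it was 21 (2.95%, beside 5.31%). DESeq2 on all 5 libraries called 126 (17.7%), 62 higher and 64 lower, beside 19.6% of all. With higher and lower calls pooled, the bivalent share exceeded the share of all regions in none of these. The directions differed. The share called lower in P32 was smaller at bivalent regions than over all in each of these settings. The share called higher was larger at bivalent regions by DESeq2 and without Tutored 1, Tutored 2 or Isolate 2. It was smaller there without Isolate 1. These differences between shares were not tested.

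The reads in H3K4me3 islands differed between the ages over a wider range at bivalent regions than over all. The middle range, taken as for Isolate against Tutored, ran from -1.18 to 1.19 there and from -1.09 to 0.82 over all. Isolate against Tutored, where age did not differ, also had a wider range at bivalent regions. The wider range was thus not limited to the comparison of ages, and the part of low read counts in it was not tested. The sums of reads in islands move with how much was called as well as with the reads there. The median log2 difference of P32 from P67 was 0.11 at the 711 bivalent regions with a P32 island, beside 0.01 over all. With regions called in at least 2 libraries it was 0.035, beside -0.089 over all. Of the 711, 101 (14.2%) were more than 2-fold higher in P32 beside 5.95% of all. A further 99 (13.9%) were more than 2-fold lower beside 11.6%. The difference went with length, since bivalent regions up to 1600 bp had a median of 0.36 (192 regions, 71.4% higher in P32) and those over 4000 bp one of -0.27 (77 regions, 33.8% higher). Over all tested regions the same bands had 0.16 and -0.10. Spearman's rho of length with the difference was -0.29 over 711 bivalent regions and -0.17 over 13513, both across regions that share libraries. The P32 islands covered 0.873 times the length of the P67 ones at the median bivalent region, beside 0.857 times over all, and 0.658 times in those over 4000 bp, beside 0.791. The part of the covered length in these differences was not tested.

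The bivalent region with the smallest p among those higher in P32, chr27:2214401-2216200, had 31, 57, 35 and 68 H3K4me3 reads in Tutored 1, Tutored 2, Isolate 1 and Isolate 2 and 193 in P32. Scaled to library size this was 5.41 to 8.48 CPM at day 67 and 38.0 in P32. Its log2 difference was 2.47 ± 0.38 (SE) with an adjusted p of 0.071 by edgeR. The second, chr15:12997601-13000000, had 37, 86, 53 and 95 reads and 245 in P32, a log2 difference of 2.33 ± 0.36. The others were chr5:8780001-8781600 (log2 1.72), chr5:49444201-49445400 (2.07) and chr4A:6237401-6239200 (1.81). All 5 were 1.2 to 2.4 kb long after merging with the P32 islands, were high in P32 alone and carried H3K9me3 there.

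Among those lower in P32, chr7:26000601-26006800 had 340, 652, 264 and 941 reads at day 67 and 41 in P32. Its islands covered 4.8 to 6.2 kb at day 67 and 1.6 kb in P32, and the log2 difference was -3.19 ± 0.41 (SE) with an adjusted p of 0.071 by edgeR. The second, chr15:713201-719600, had 492, 1318, 469 and 1483 reads and 213 in P32, a log2 difference of -1.56 ± 0.23. The others were chr5:55391801-55395800 (log2 -2.78), chr28:1928001-1932200 (-1.82) and chr6:2501201-2506600 (-1.62). All 5 were 4.0 to 6.4 kb long and were low in P32 alone, and 3 of them had no H3K9me3 island there.

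Some bivalent regions had 1 mark alone at P32. Among the 61 without H3K4me3 there, chr1:85087001-85091400 had the most reads at day 67, with 148, 569, 100 and 484. The next, chr4:69436801-69441200, had 152, 482, 100 and 408, and lay in an H3K27me3 domain of 61.6 kb at day 67. The P32 island of H3K27me3 over this region was 106 kb long, reaching beyond that domain, and held 5464 reads. Among the 20 without H3K27me3 at P32, chr3:79329401-79334600 had the most H3K27me3 reads at day 67 in the islands over it, with 789, 432, 802 and 427. It kept 206 H3K4me3 reads in P32, beside 313, 893, 292 and 874 at day 67.

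For H3K27me3, islands of all 5 libraries were merged, and 743 domains that overlapped bivalent regions were tested among 11659 called in all 5. None passed an adjusted p of 0.05 by edgeR (0% of all), and the smallest adjusted p was 0.439. Unadjusted p was under 0.05 at 75 (10.1%), 46 higher and 29 lower in P32, beside 10.1% of all. DESeq2 called 34 (4.58%), 15 higher and 19 lower, beside 6.54% of all. When domains called in at least 2 libraries were tested, with the uncalled ones at 0 reads, edgeR called 3 of 759, all lower in P32, beside 1.38% of all. The median log2 difference was 0.15 beside -0.00 over all. It was 0.145 without Tutored 2 and 0.159 with domains called in at least 2 libraries. In both of these settings the excess of higher over lower domains at an unadjusted p under 0.05 by edgeR turned. Among domains called in all 5, 15 (2.02%) were more than 2-fold higher in P32, beside 1.70% of all. A further 34 (4.58%) were more than 2-fold lower, beside 7.21%.

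The domain with the smallest p among those higher in P32, chr13:3596201-3637600, had 1021, 1360, 750 and 1352 H3K27me3 reads at day 67 and 2666 in P32. The islands covered 17.2 to 27.8 kb at day 67 and 41.2 kb in P32, and the log2 difference was 1.5 ± 0.17 (SE) with an adjusted p of 0.439 by edgeR. Among the lower ones chr2:149011401-149042600 had 939, 1105, 764 and 1161 reads over 20.8 to 30.4 kb at day 67, and 342 over 7.2 kb in P32. Its log2 difference was -1.31 ± 0.22, with the same adjusted p. In both the P32 library lay outside the range of all 4 day 67 libraries, and the covered length moved with the reads.

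Both marks could be compared between the ages only where the H3K4me3 region and the H3K27me3 domain over it were called in all 5 libraries. This left out the 61 without H3K4me3 in P32. It kept some without H3K27me3 over the region itself in P32, such as chr12:10077401-10079800. The H3K27me3 difference was that of the whole domain, so bivalent regions in 1 domain share a value. Of 703 bivalent regions tested for both, 5 were more than 2-fold higher in P32 for both marks, 11 more than 2-fold lower for both, and 0 higher for 1 and lower for the other. Spearman's rho between the 2 differences was 0.25 over these regions. The 469 with an H3K9me3 island in P32 had a median log2 difference of 0.33 for H3K4me3 and 0.21 for H3K27me3, and the 234 without had -0.42 and -0.04. Both sets had a median length of 2200 bp. They differed at day 67 already. The median H3K27me3 density was 8.79 CPM per kb and the median domain 9.6 kb where P32 had H3K9me3. Where it did not, these were 7.04 CPM per kb and 8.2 kb. The median H3K4me3 density at day 67 went the other way, at 7.99 CPM per kb with P32 H3K9me3 and 8.63 without. The joint counts, the rho and this split were taken at bivalent regions only. Whether they are particular to bivalent regions was not tested.

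**Figure D5:**
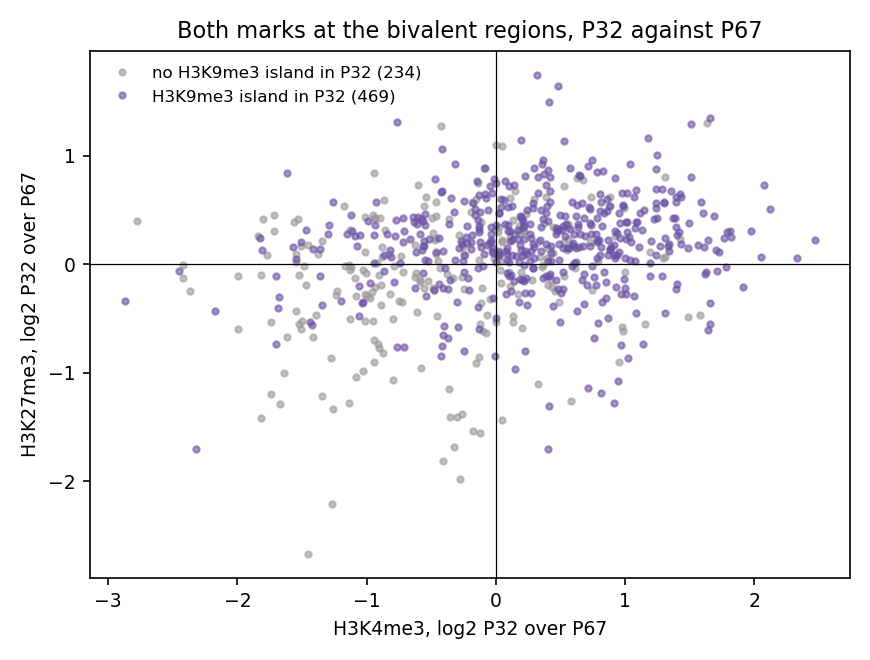
Log2 difference of P32 from P67 in H3K4me3 of the region (horizontal axis) and in H3K27me3 of the whole domain over it (vertical axis). The 703 bivalent regions are 1 point each, coloured by an H3K9me3 island in P32. Points with H3K9me3 (469) centre at 0.33 and 0.21, and those without (234) at -0.42 and -0.04.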

How the data were processed

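Chromatin of auditory forebrain was immunoprecipitated for H3K4me3, H3K27me3, H3K9me3 and Pol II from formaldehyde-fixed, sonicated tissue and sequenced, per the labels' protocols. Tools named in the submitters' processing notes are SICER 1.1, BWA 0.6.1 and MACS, without saying what each did. Per the deposited names, islands were called library by library at a false discovery rate of 1E-5 in 200 bp windows, with gaps of 200 bp (H3K4me3) or 600 bp (H3K27me3, H3K9me3, Pol II). The authors deposited whole-number counts of reads per island. For replicate 2 of all marks but H3K4me3, the authors deposited the fold over input, its p-value and q-value, and input counts as well. Reads outside islands were not used here, so an uncalled region has an unknown count, and the depth of the libraries is unknown here. A tag in the deposited names (uniqnorm) may mean that reads were made equal in number before calling, which would bear on every count and CPM, and nothing explains it.

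H3K4me3 islands of the 4 day 67 libraries were merged where they overlapped or touched into 20267 regions, and overlap by at least 1 bp counted as presence. Reads were summed over the islands of a region and tested with edgeR 4.0.16 (robust quasi-likelihood fit, TMM factors, Benjamini-Hochberg adjusted p of 0.05, all regions called in every library compared) in R 4.3.3. Standard errors came from the F statistic and the fold. Alternatives were DESeq2 1.42.0, RLE size factors, regions averaging 50 reads or more, regions with islands in 2 or more libraries, a replicate block, each library left out, and exchanged H3K4me3 replicate 1 groups. The main tests fitted the group alone, without pairs. In the replicate block same replicate numbers were treated as pairs, because day 67 has 1 input DNA sample per replicate number. Only the title of the replicate 1 input names a pool of Tutored and Isolate. Libraries with the same number deviated together from their group means, with r of 0.788 for H3K4me3 and 0.613 for H3K27me3. Whether this came from paired samples was not tested. The interval operations and count tests were tested on simulated data.

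Regions are named by a rule: the 8 longest, the 5 densest in H3K4me3, the 5 domains with the most members, the 5 with the smallest unadjusted p in each direction of each test, and up to 5 without H3K4me3 or H3K27me3 in P32. Not all are printed, and the 5 with Pol II in P32 were named after their values were seen. The members, lists and tests were chosen with earlier results of these data known. Gene lists drawn up for this work were not used, because the islands carry no gene names and the gene table at hand is of another assembly.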

Additional observations from a re-analysis of the deposited data

How the results depend on the processing

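The number of bivalent regions ranged from 673 to 1133 beside 772. It was 673 when H3K27me3 had to cover 50% of the region, 705 when H3K4me3 islands within 1000 bp were merged, 926 with equal numbers of islands per library and 1133 when 1 Pol II library was allowed. Leaving out 1 library of all marks gave 812 to 1058. With equal numbers of islands, 594 of the 926 overlapped the 772. When P32 islands had to cover 50% of the region, H3K4me3 was present at 66.5%, H3K27me3 at 92.1%, H3K9me3 at 53.6% and Pol II at 0.130% of them. For P32 against P67 in H3K4me3, DESeq2 called 2650 regions and 126 bivalent ones beside 0 and 0 by edgeR, and leaving out each day 67 library gave 697 to 1180 and 16 to 40. For H3K27me3, DESeq2 called 763 and 34, and testing domains called in at least 2 libraries 328 and 3. For Isolate against Tutored in H3K27me3, DESeq2 called 3 domains. The cause of these changes was not tested. For Isolate against Tutored, the replicate block that follows the assumed pairing gave 0 regions in either mark and changed no call. P32, with 1 library and no partner, was not fitted with a block. The day 67 libraries treated as pairs thus count as independent there.

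Exchanging the H3K4me3 replicate 1 groups turned 7 of the 10 named Isolate against Tutored differences, to -0.30 (chr5:7424401-7425800), -0.23 (chr3:78980201-78983000), -0.13 (chr2:97264001-97265200), 0.12 (chr21:3311201-3312800), 0.12 (LGE22:35801-38200), 0.31 (chr1:118110401-118112400) and 0.30 (chr18:5307801-5309400). Of 347 values of named regions under alternatives, 340 kept their direction and 58 newly passed the threshold, all for P32 against P67.

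P32 has 1 library per mark, so its differences have no replicate check. Islands list only called stretches, so a missing island is not a count of 0, and shorter lists call fewer regions. Short regions rest on few reads in the replicate 1 libraries of H3K4me3. No gene was named, since the build of the islands is not given.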

Other observations

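Along the genome, bivalent regions followed the density of H3K4me3 regions. They were 5.75% of the H3K4me3 regions of the 6 large autosomes (378 regions), 5.51% on the 8 middle chromosomes (190), 4.73% on the 18 small ones under 20 Mb (171) and 4.67% on Z (33). Per Mb they numbered 0.637 on the large, 0.880 on the middle and 1.23 on the small chromosomes, and 0.453 on Z. Among H3K4me3 regions with H3K27me3 in all 4 day 67 libraries, the bivalent share was 39.5% on large and 26.7% on small chromosomes, while the share with Pol II in all 4 was 9.09% and 20.1%. Examples of single chromosomes are 2 of 205 regions on chromosome 28, 4 of 222 on chromosome 23, 15 of 144 on chromosome 26 and 5 of 33 on the small linkage group LGE22, picked after the values were seen and with no test.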
